A study of Mus musculus with 94 samples.

Results

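The epididymal white fat (eWAT) of mice made obese by diet was compared with that of lean mice of the same age. The libraries were taken by their labels: 5 obese and 6 lean libraries, 11 of the 94 of the series. Fat tissue stores triglyceride in fat cells, which make fatty acids from glucose under the control of insulin and release hormones such as leptin in proportion to their size. The stroma between the fat cells holds progenitors, vessels, a collagen-rich matrix and resident macrophages. In obesity the epididymal pad is known for enlarged fat cells and for macrophages that gather around dying ones and take up their lipid.

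All mice were male C57BL/6JBomTac. The obese mice had eaten the high-fat diet D12492 for 18 weeks from 10 weeks of age, and the lean mice had eaten the low-fat diet D12450J throughout; both groups were 28 weeks old. The 47 mice of the series gave 1 epididymal and 1 inguinal (iWAT) library each, and the other groups had been returned to the low-fat diet for 2, 6 or 12 weeks or were their lean controls. Mice were housed 3 to an enclosure, and no source used here says which mice shared one, so the p-values take each mouse as a separate replicate. A fat pad is a mixture, and a lower level of a gene in it may stand for fewer cells of a type or for less RNA per cell, which cannot be told apart.

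Poly(A) RNA was counted per gene. The obese libraries held 8.38 ± 0.85 M counts and the lean ones 10.1 ± 1.25 M (SD; two-sided exact permutation test, p = 0.0281; p = 0.0762 without obese replicate 3). The 10 most abundant genes took 10.6 ± 2.99% of the counts in obese libraries and 21.2 ± 3.32% in lean ones (exact permutation p = 0.00433, where the smallest possible is 0.00216), with Scd1 alone at 40785 ± 21674 CPM in obese and 152456 ± 40291 CPM in lean libraries. Levels are given in CPM, counts scaled to library size with TMM factors, which keep a few very abundant genes from setting the scale. The 5 obese values are listed in the order of the replicate numbers, and the lean values as the lowest, the median and the highest of 6. Values after ± are SDs beside a CPM and standard errors beside a log2 fold change, written log2FC, which is obese minus lean. A gene was called, and is said to have risen or fallen, where edgeR's quasi-likelihood test gave a Benjamini-Hochberg adjusted p under 0.05 over all genes tested.

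Of 14323 genes tested, 2013 rose and 1333 fell in the eWAT of obese mice, which is 23.4% of the genes in either direction, 14.1% higher and 9.31% lower. The values of the groups did not overlap for 840 genes that were higher in obese mice (5.86%) and 499 that were lower (3.48%). The fold was above 2 on a linear scale (a log2 fold change beyond 1) for 853 of the genes that rose and 208 of those that fell, and the median log2 fold change of all genes was -0.003. The count was 1722 without obese replicate 4 and 1568 without obese replicates 4 and 5. The mouse numbers in the labels fall into 2 ranges, replicates 1 to 3 in one and the higher replicates of each group in the other; fitted apart, 607 and 1513 genes were called. A limma fit with a random block for runs of adjacent mouse numbers, called the run block here, gave 2622 calls at an estimated correlation of 0.0667. Of the 145 called genes named with values 18 lost their calls in it. That fit differs from the main one in method as well as in the block. No limma fit without the block was set beside it, so a lost call cannot be assigned to either.

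Among the 12 largest falls without overlap were genes of fat synthesis, Elovl6, Acly, Acaca, Fasn and Acss2, and the fructose transporter gene Slc2a5. Beside them stood Hsd11b1, whose enzyme regenerates active glucocorticoid, Tkt of the pentose phosphate pathway, the cytochrome P450 gene Cyp2f2, Tmem79, and a pair of genes better known from liver, the albumin gene Alb (log2FC -3.83) and H2-Q10 (log2FC -3.75), a class I antigen gene with near-identical relatives whose reads may be split between them. Among the 12 largest rises were the macrophage genes Mmp12, Atp6v0d2, Gpnmb and Itgax and, of other immune cells too, Rgs1 and the interleukin-7 receptor gene Il7r. The others were Ubd, F7, which encodes coagulation factor VII, Trdn, the triadin gene, Npas4, an activity-dependent transcription factor gene, Gpr50 and Myh15. Ubd, a ubiquitin-like modifier gene induced by inflammatory signals, was at 110.3, 195, 8.16, 200.4 and 8.33 CPM in the obese libraries, against 2.10, 5.73 and 7.60 CPM in the lean ones (log2FC 4.23 ± 0.58, adjusted p = 3.35e-06). Gpr50, an orphan receptor gene related to the melatonin receptors, was at 32.3, 72.3, 1.80, 29 and 1.89 CPM in obese mice, against 0, 0.425 and 1.56 CPM in lean mice. Both genes were high in obese replicates 1, 2 and 4 and only just above the lean range in replicates 3 and 5. Myh15, a myosin gene, had 1.42, 9.41, 0.692, 19.6 and 0.556 CPM in the obese libraries and a count in 1 of the 6 lean ones, at 0.105 CPM, so no fold is given for it. Of these 12 rises 7 lost their calls in the run block: Mmp12 (adjusted p = 0.225), Rgs1 (0.259), Atp6v0d2 (0.218), Itgax (0.147), Il7r (0.0732), F7 (0.147) and Myh15 (0.162).

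**Figure D1:**
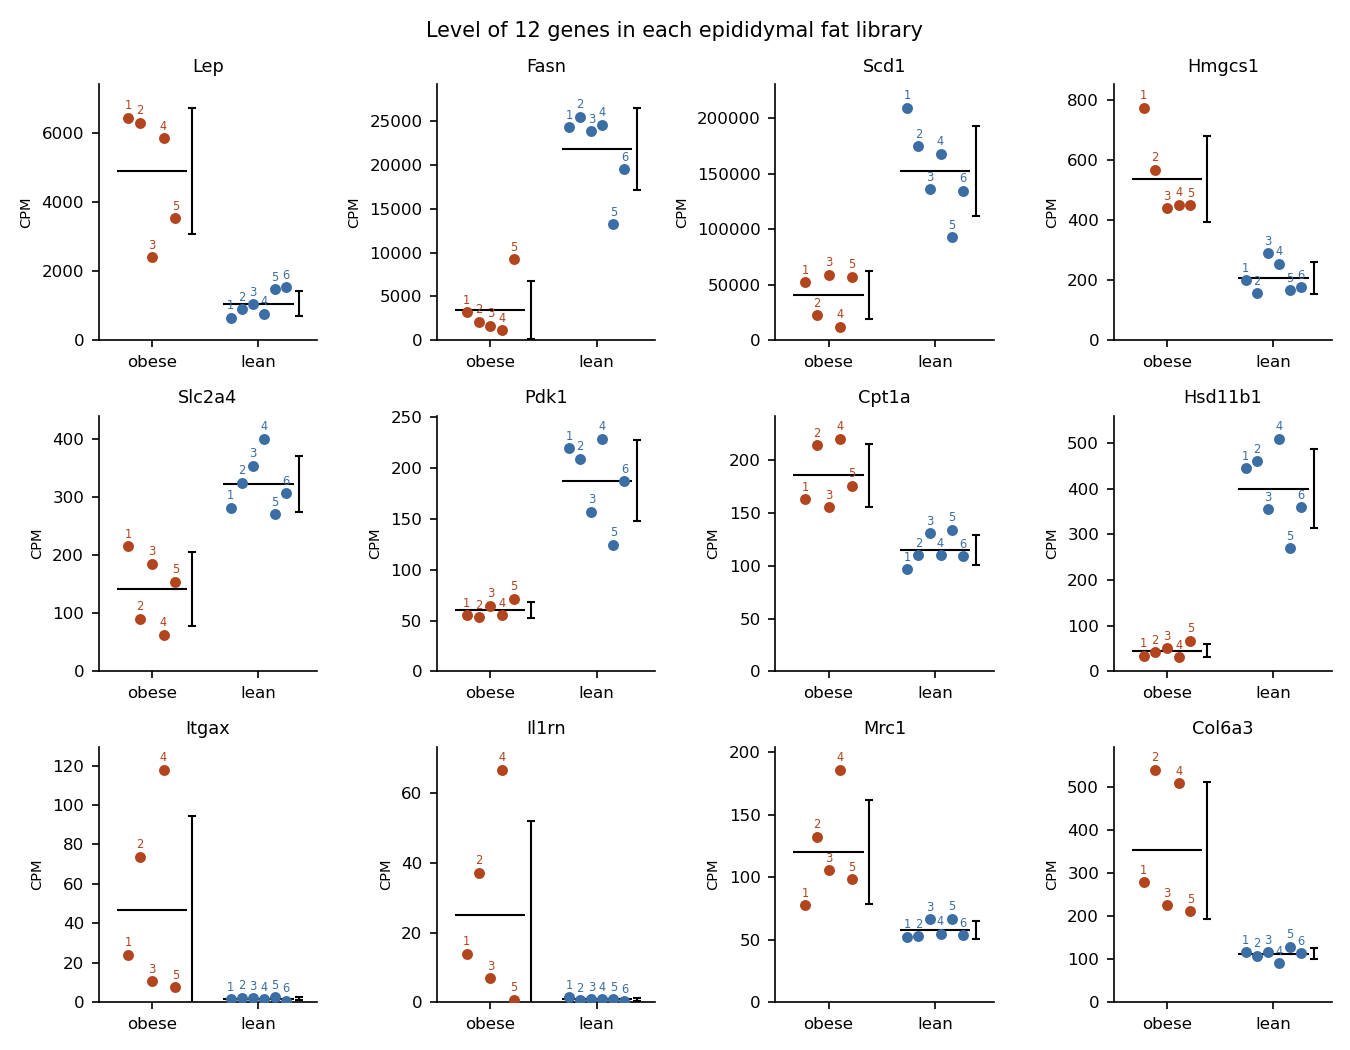
Level of 12 genes in CPM in each epididymal library, obese on the left and lean on the right of each panel, with replicate numbers at the points, the mean as a line and the SD as a bar (cut at 0). Fasn, Scd1, Slc2a4, Pdk1 and Hsd11b1 lie lower in the obese libraries without overlap, Lep, Hmgcs1, Cpt1a, Itgax, Mrc1 and Col6a3 lie higher without overlap, and for Il1rn obese replicate 5 (0.778 CPM) lies inside the lean range.

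Among the hormones of fat cells, leptin and the genes known to follow fat cell enlargement rose, while several other secreted products fell. Lep, the leptin gene (chromosome 6, 29060220 to 29073877 in mm10, the build of all positions given here), was at 6445, 6301, 2409.7, 5858 and 3544 CPM in obese mice and at 657, 977 and 1544 CPM in lean mice (log2FC 2.20 ± 0.29, adjusted p = 1.98e-06). Every obese library lay above the highest lean one, and replicate 3 was the lowest of the obese. Sfrp5, which encodes a secreted Wnt inhibitor and marks fat cell expansion, reached 1109.9, 728, 471.3, 647 and 295 CPM in obese mice, against 35.2, 70.9 and 126 CPM in lean mice (log2FC 3.09 ± 0.46, adjusted p = 1.17e-05). Mest, an imprinted gene tied to fat cell size, rose as well (log2FC 1.31 ± 0.39, adjusted p = 0.0113); both were separate from the lean range, and in both obese replicate 5 was the lowest. Of the 7 enlargement genes 4 rose.

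The 14 adipokine genes tested went both ways, with 3 higher and 4 lower. Rarres2, which encodes chemerin, and Metrnl, the gene of meteorin-like, rose (log2FC 0.55 ± 0.12 and log2FC 1.56 ± 0.33). Retn, the resistin gene, was at 317, 108, 308, 40.5 and 298 CPM in obese mice, against 364, 583 and 725 CPM in lean mice (log2FC -1.42 ± 0.35, adjusted p = 0.00264). Rbp4, which encodes the retinol carrier, fell (log2FC -1.55 ± 0.42, adjusted p = 0.00616), and Cfd, the adipsin gene, fell too (log2FC -1.71 ± 0.44). In these 3 genes obese replicates 2 and 4 were the lowest, while Cfd in replicate 3 (3227 CPM) lay inside the lean range. Adipoq, the adiponectin gene, was not called: it averaged 3459.8 ± 1235 CPM in obese mice and 4562 ± 1105 CPM in lean mice (log2FC -0.40 ± 0.23, adjusted p = 0.221).

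The genes that turn glucose carbon into fatty acids fell as a group. Of 18 genes of de novo lipogenesis 13 fell (12 without obese replicate 4), 12 of them without overlap, beside 9.31% lower and 3.48% without overlap over all genes, and their median log2 fold change was -1.58. Acly, whose enzyme makes cytosolic acetyl-CoA from citrate (chromosome 11, 100476353 to 100528000), was at 234, 177, 147, 152 and 685 CPM in obese mice and at 1481, 2606 and 3338 CPM in lean mice (log2FC -3.14 ± 0.52, adjusted p = 5.08e-05). Fasn, the fatty acid synthase gene (chromosome 11, 120805846 to 120824547), was at 3197, 2150.4, 1669, 1185 and 9237 CPM in obese mice, against 13256, 24032 and 25466 CPM in lean mice (log2FC -2.64 ± 0.53, adjusted p = 0.000438). The groups were far apart in both genes, and obese replicate 5 stood above the other obese libraries; without it the falls were larger (log2FC -3.77 for Acly and -3.39 for Fasn).

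Acaca, the acetyl-CoA carboxylase gene (log2FC -2.81 ± 0.47; -3.49 without obese replicate 5), and Slc25a1, which carries citrate out of mitochondria (log2FC -1.72 ± 0.37), fell with them. So did Acss2, which activates acetate (log2FC -2.53 ± 0.50), and Me1, the malic enzyme gene that supplies NADPH (log2FC -2.02 ± 0.42). Elovl6, which lengthens palmitate to stearate, was at 46.1, 57.4, 33.7, 47.6 and 155 CPM in obese mice, against 682, 1277 and 1712 CPM in lean mice (log2FC -4.16 ± 0.60, adjusted p = 8.32e-06). That is a 17.9-fold lower mean in obese mice. Scd1, the main desaturase gene, was at 52372, 22869, 59043, 12244 and 57396 CPM in obese mice and at 92665, 151809 and 209123 CPM in lean mice (log2FC -1.90 ± 0.39, adjusted p = 0.000556). Every obese library lay below the lean range, and replicate 4 was the lowest. Its neighbour on chromosome 19, Scd2, averaged 1225 ± 577 CPM in obese mice and 2338 ± 676 CPM in lean mice and was not called (log2FC -0.93 ± 0.40, adjusted p = 0.0885).

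Of 10 regulators of these genes 4 fell, 2 without obese replicate 4. Mlxipl, which encodes the sugar-sensing factor ChREBP, was at 90.8, 60.9, 112, 58.6 and 118 CPM in obese mice, against 123, 182 and 264 CPM in lean mice (log2FC -1.07 ± 0.26, adjusted p = 0.00266). Thrsp, a lipogenic nuclear protein gene, fell (log2FC -1.71 ± 0.45). Srebf1, the gene of the insulin-driven factor SREBP1, was also lower (log2FC -0.83 ± 0.28, adjusted p = 0.0246), and its call was lost without obese replicate 4 (adjusted p = 0.119), obese replicate 2 or lean replicate 6. The highest obese value of Srebf1, that of replicate 1, lay only just below the lowest lean one.

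Among the transcription factors of the fat cell, Pparg, the master factor of adipogenesis (chromosome 6, 115360951 to 115490399), was at 174, 142, 136, 122 and 189 CPM in obese mice and at 206, 251 and 356 CPM in lean mice (log2FC -0.80 ± 0.20, adjusted p = 0.00369). Klf15, a factor that promotes fat cell maturation, fell (log2FC -1.27 ± 0.23, adjusted p = 0.000151). Zfp423, which encodes a factor of committed preadipocytes that restrains the beige programme, had 129, 103, 101, 117 and 122 CPM in obese mice, against 54.6, 62 and 69.9 CPM in lean mice (log2FC 0.88 ± 0.13, adjusted p = 1.17e-05). The obese libraries differed little among themselves in Zfp423 and all lay above the lean ones. Prdm16, a factor of beige and brown fat cells, rose as well (log2FC 0.58 ± 0.15, adjusted p = 0.00371). In all, 5 of 18 adipogenic factors rose (3 without obese replicate 1) and 6 fell.

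Of the genes of triglyceride synthesis and of lipolysis 18.8% and 22.2% fell, beside 9.31% over all genes. These falls depended on single libraries. Of 16 genes of triglyceride synthesis 3 fell, calls that were lost without obese replicate 4, and Dgat2, which adds the last acyl chain, averaged 4023 ± 1243 CPM in obese mice and 3005 ± 537 CPM in lean mice (log2FC 0.42 ± 0.31, adjusted p = 0.361). Of 18 lipolysis genes 4 fell and 1 rose; the falls were lost without obese replicate 2 or 4 or lean replicate 1, and 8 fell without obese replicate 1 or lean replicate 5. The gene that rose was Adcy5, an adenylyl cyclase that makes the cyclic AMP of the lipolytic signal, at 463.7, 280.4, 439.1, 218 and 178 CPM in obese mice, against 89.2, 132 and 142 CPM in lean mice (log2FC 1.33 ± 0.28, adjusted p = 0.000764). Adra1a, the alpha-1A adrenergic receptor gene, had 20.4, 15.8, 14.2, 12.4 and 9.44 CPM in obese mice and 3.52, 6.27 and 8.37 CPM in lean mice (log2FC 1.26 ± 0.21, adjusted p = 4.77e-05). For both, every obese library lay above the lean range. The fat cell's beta-3 receptor gene Adrb3 was uneven, at 1322, 395.5, 1684, 245 and 1638 CPM in obese mice, against 1122, 1737 and 2621 CPM in lean mice, and was not called (log2FC -0.81 ± 0.38, adjusted p = 0.115).

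Some genes of the droplet and the cell surface were called. Of 13 droplet genes 1 rose (7.69%) and 2 fell (15.4%), beside 14.1% and 9.31% over all genes. Hilpda, a droplet protein gene that inhibits the main triglyceride lipase, rose (log2FC 1.49 ± 0.27, adjusted p = 0.000145), and Vldlr, a receptor for triglyceride-rich particles, rose (log2FC 0.49 ± 0.10, adjusted p = 0.000433). Cidea, a droplet fusion gene of thermogenic fat cells, was at 9.25, 5.31, 2.35, 2.0 and 2.78 CPM in obese mice, against 8.43, 14.5 and 15.1 CPM in lean mice (log2FC -1.61 ± 0.33, adjusted p = 0.000596). Lpl, the lipoprotein lipase gene and the most abundant of the uptake list, averaged 10768 ± 2368 CPM in obese mice and 13274 ± 2433 CPM in lean mice (log2FC -0.30 ± 0.19, adjusted p = 0.275). Of 16 uptake genes 1 rose and 1 fell, shares below those of all genes (4 fell without obese replicate 1).

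Genes of glucose uptake and breakdown fell as well. Slc2a4, the gene of the insulin-responsive glucose transporter GLUT4 (chromosome 11, 69942539 to 69948188), was at 215, 90.4, 185, 63 and 154 CPM in obese mice and at 271, 315 and 399.8 CPM in lean mice (log2FC -1.19 ± 0.25, adjusted p = 0.000763). Obese replicates 2 and 4 were the lowest, as they were for Retn, Rbp4 and Cfd. Slc2a5 was at 0.762, 0.332, 0.83, 0.421 and 2.22 CPM in obese mice, against 5.21, 11 and 13.5 CPM in lean mice (log2FC -3.49 ± 0.65; -4.12 without obese replicate 5). Of 22 genes of glucose transport and glycolysis 11 fell and 2 rose. Gapdh, a glycolytic enzyme gene often used as an internal control, fell (log2FC -1.11 ± 0.23, adjusted p = 0.000574) with no overlap between the groups. The rise was led by Hk3, the hexokinase gene of myeloid cells, at 11.3, 34, 7.05, 69.9 and 6.22 CPM in obese mice, against 2.21, 2.84 and 3.98 CPM in lean mice (log2FC 3.13 ± 0.61; 2.33 without obese replicate 4; adjusted p = 0.106 in the run block).

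The pentose phosphate pathway, which supplies NADPH for fatty acid synthesis, fell in 6 of its 11 genes. Tkt, the transketolase gene, was at 190.4, 129, 148, 115 and 327 CPM in obese mice, against 733, 1036 and 1357 CPM in lean mice (log2FC -2.52 ± 0.39, adjusted p = 1.97e-05), and Taldo1, the transaldolase gene, fell (log2FC -1.06 ± 0.19). Nnt, whose mitochondrial enzyme makes NADPH, fell (log2FC -0.61 ± 0.11, adjusted p = 0.000152); C57BL/6J mice are known to carry a deletion in this gene, and no source used here says whether this substrain does. Of 24 insulin signalling genes 4 rose and 2 fell, and 1 of the rises was called without obese replicate 4. Their shares, 16.7% higher and 8.33% lower, were close to those of all genes (14.1% and 9.31%).

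Genes of pyruvate oxidation and of the respiratory chain fell almost throughout, by small amounts. Of 27 genes of pyruvate dehydrogenase and the citrate cycle 22 fell (median -0.68; 17 without obese replicate 4). Of 36 complex I genes 30 fell (-0.66; 19 without obese replicate 4), and of 30 genes of complexes III and IV and ATP synthase 29 fell (-0.72; 22 without obese replicate 4). Part of these falls separated the groups: 10, 14 and 10 genes did not overlap, in the order of the lists. Over all genes 3.48% were lower without overlap, a smaller share than in each of these lists. Pdha1, of pyruvate dehydrogenase, was at 238, 199, 245, 158 and 319 CPM in obese mice and at 415.4, 629 and 699 CPM in lean mice (log2FC -1.36 ± 0.23, adjusted p = 7.2e-05), and its partner Pdhb fell (log2FC -1.37 ± 0.25).

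Pdk1, the kinase gene that switches pyruvate dehydrogenase off, fell too, at 55.3, 53.2, 64.6, 55.5 and 71.6 CPM in obese mice, against 125, 198 and 229 CPM in lean mice (log2FC -1.64 ± 0.23, adjusted p = 5.46e-06). Its relative Pdk4 was the 1 gene of that list to rise (log2FC 0.95 ± 0.32, adjusted p = 0.0255), at 172, 135, 180.1, 56.1 and 38.8 CPM in obese mice, against 30.9, 62.6 and 91.1 CPM in lean mice. Obese replicates 1 to 3 were high in Pdk4 and replicates 4 and 5 lay inside the lean range. The call was lost without lean replicate 5 or 6 or without obese replicate 1, 2 or 3. It was also lost in the run block (adjusted p = 0.104). Smaller falls were those of Cs, citrate synthase (log2FC -0.74 ± 0.19), Sdha of complex II (log2FC -0.79 ± 0.14) and Atp5b of ATP synthase (log2FC -0.72 ± 0.16). Ndufb9 of complex I fell (log2FC -1.07 ± 0.20) and was below the lean range in each obese mouse, with replicate 1 (60.9 CPM) next to it. The coactivator genes of mitochondrial biogenesis fell, Ppargc1a at 8.60, 10.2, 9.68, 5.15 and 8.22 CPM in obese mice, against 13.2, 14.7 and 24.6 CPM in lean mice (log2FC -1.04 ± 0.22, adjusted p = 0.000712), and Ppargc1b fell with it (log2FC -1.17 ± 0.21).

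Genes that break down branched-chain amino acids, a fuel of mature fat cells, fell as well: 17 of 22 genes fell (median -0.59), 7 without obese replicate 4 and 8 without replicate 2. Bcat2, whose enzyme takes the first step, fell (log2FC -0.86 ± 0.20) and Hsd17b10, of isoleucine breakdown, fell (log2FC -0.92 ± 0.17, adjusted p = 0.000145). Of 19 genes of fatty acid oxidation 5 fell, 1 to 9 when single libraries were left out, among them Acadvl (log2FC -0.69 ± 0.13), and Cpt1a, which admits fatty acids into mitochondria, rose. Cpt1a was at 163, 214, 156, 220.3 and 176 CPM in obese mice and at 97.1, 109.8 and 134 CPM in lean mice (log2FC 0.69 ± 0.15, adjusted p = 0.0011), with every obese library above the lean range. Ucp1, the uncoupling protein of thermogenic fat, was at or near 0 in both groups, with at most 0.664 CPM in obese mice and 0.568 CPM in lean mice.

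Cholesterol genes split by step and direction. Hmgcs1, whose enzyme starts the pathway in the cytosol (chromosome 13, 119690379 to 119708260), was at 775, 569, 441.04, 452.6 and 451.3 CPM in obese mice, against 158, 189 and 291 CPM in lean mice (log2FC 1.37 ± 0.26, adjusted p = 0.000248), with no overlap. It was the 1 gene of 19 on the list to rise, and 8 fell; the falls came to 3 without obese replicate 4, and to 4 or 5 without obese replicate 2 or 3 or lean replicate 3 or 6. Lss, lanosterol synthase, fell (log2FC -1.18 ± 0.30) and Pmvk, phosphomevalonate kinase, fell (log2FC -1.25 ± 0.33), and both were separate from the lean range. On the side of storage and export, Abcg1, a sterol exporter gene, was at 100.17, 135, 89.1, 193 and 48.2 CPM in obese mice, against 36.8, 39.3 and 44.1 CPM in lean mice (log2FC 1.51 ± 0.28, adjusted p = 0.000192). Soat1, which esterifies cholesterol (log2FC 1.96 ± 0.45), and Lipa, the lysosomal lipase gene (log2FC 1.87 ± 0.42), rose as well; in both, replicates 2 and 4 were the highest and replicate 5 lay inside the lean range.

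**Figure D2:**
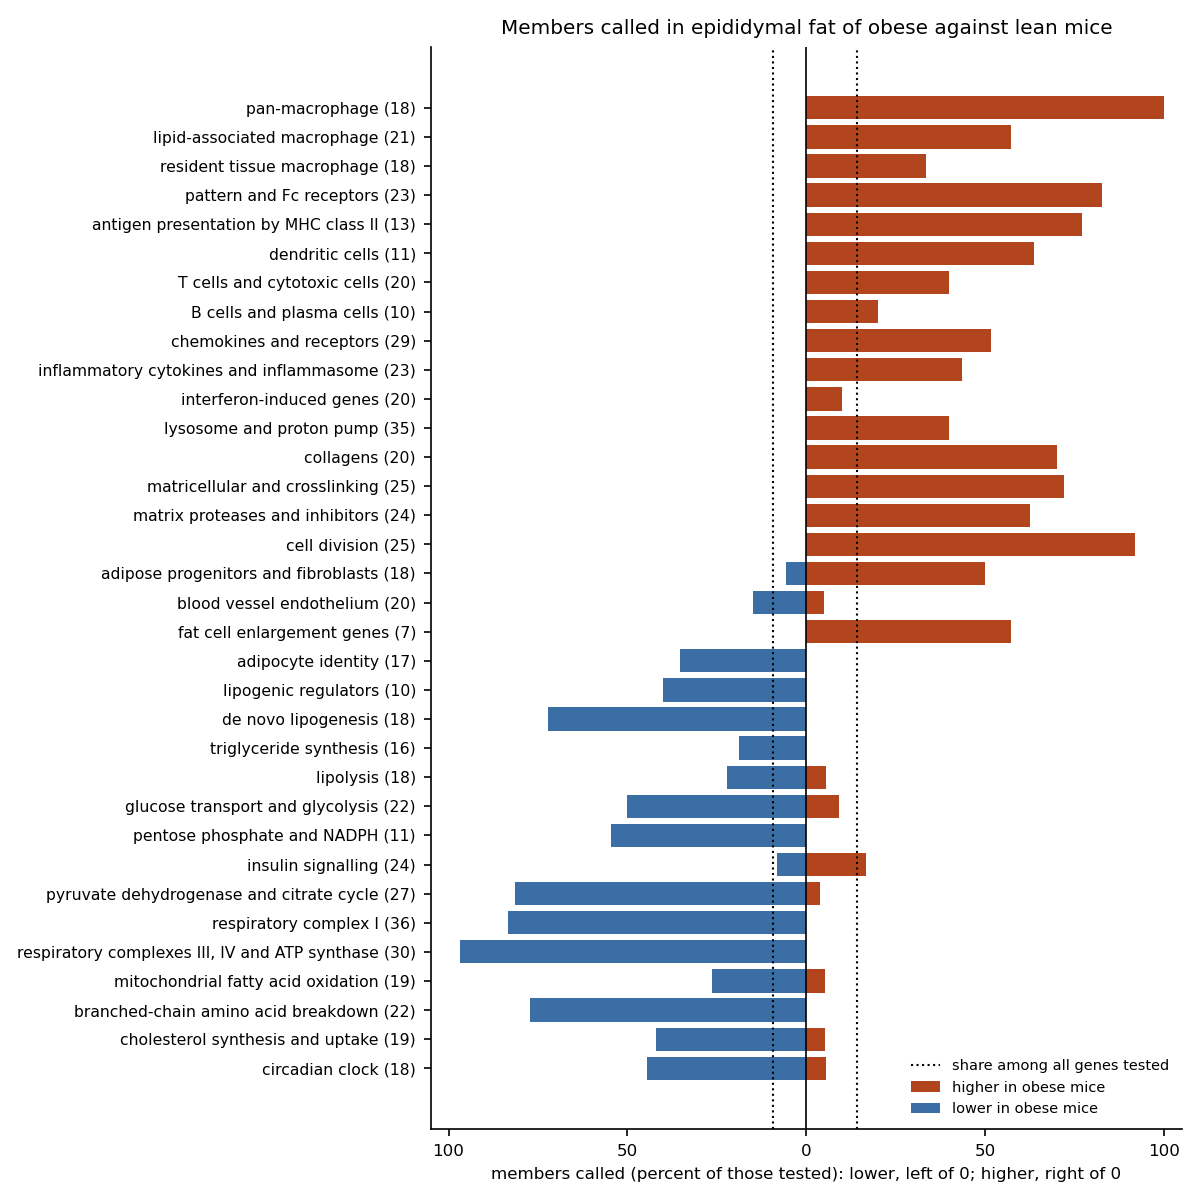
Share of tested genes in 34 lists called higher (right) and lower (left) in obese against lean epididymal fat, with dotted lines at the shares of all genes tested (14.1% higher, 9.31% lower). The general macrophage list (18 of 18), cell division and the pattern and Fc receptors reach farthest to the right, and complexes III and IV with ATP synthase (29 of 30), complex I and the citrate cycle farthest to the left.

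Macrophage genes were higher in every obese mouse, by very different amounts. The 18 general macrophage genes summed to 2094, 4409, 2333, 7369 and 1460.2 CPM in obese mice and to 885, 1001 and 1196 CPM in lean mice, and 18 of them rose (13 without obese replicate 4), beside 14.1% higher over all genes. Replicates 4 and 2 were highest and replicate 5 came closest to the lean range. Genes that define the mature fat cell were abundant in every library: 17 of them summed to 67376, 39969.8, 61408, 26689.9 and 49935 CPM in obese mice, against 44527, 63611 and 76056 CPM in lean mice, and 6 fell (3 without obese replicate 2 or 4 or lean replicate 1). The 18 lipogenesis genes summed to 59674, 28091, 63033, 15698 and 72199.5 CPM in obese mice, against 114664, 191927 and 244600.0 CPM in lean mice. Obese replicates 2 and 4, the highest in macrophage genes, were the lowest in both sums. Most of the lipogenesis sum was Scd1, whose values are given above, so its order over the mice is largely that of Scd1. For Acly and Elovl6 the order differed, with obese replicate 3 the lowest. How far the fall of the fat cell lists came with the macrophage content was not tested; in replicates 1, 3 and 5, whose macrophage sums were 2094, 2333 and 1460.2 CPM, the lipogenesis sum was also below every lean library, while the fat cell sum lay inside the lean range.

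**Figure D3:**
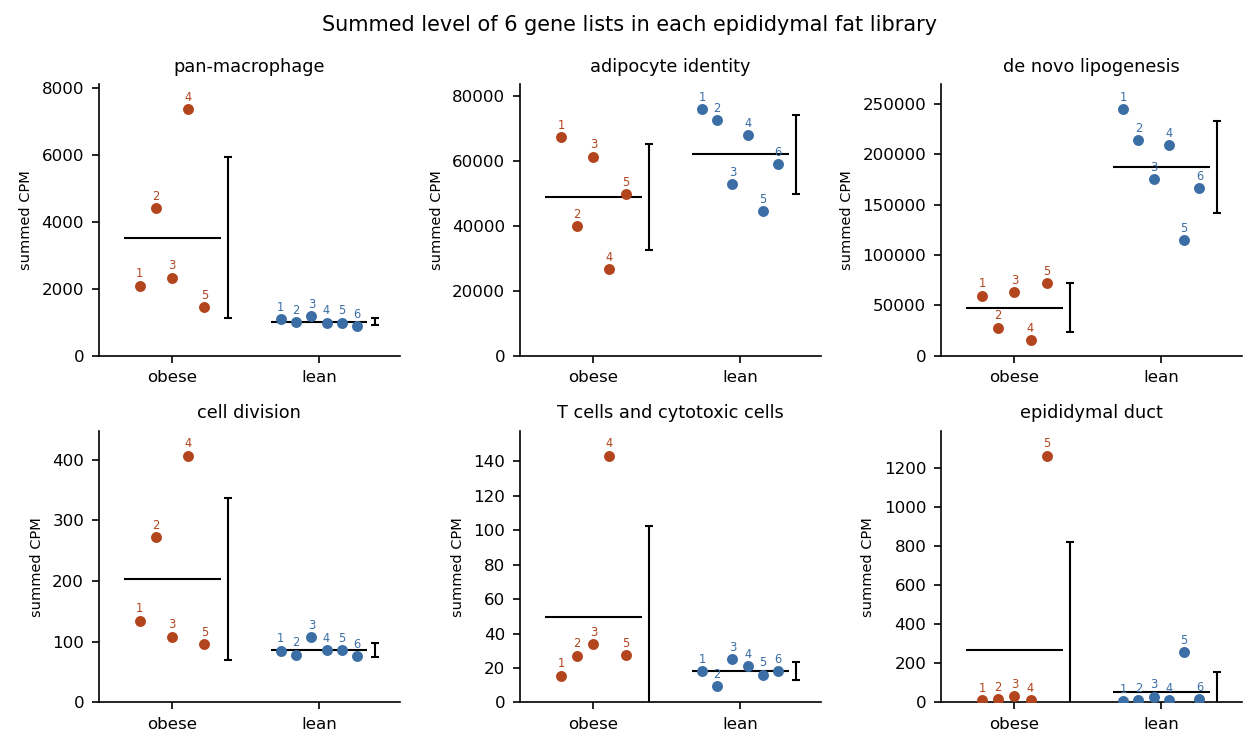
Summed CPM of 6 gene lists in each epididymal library, obese on the left and lean on the right, with replicate numbers at the points. Obese replicates 4 and 2 hold the highest macrophage sums (7369 and 4409 CPM) and the lowest lipogenesis sums (15698 and 28091 CPM), and obese replicate 5 holds the duct signal (1264 CPM). Most of the lipogenesis sum is Scd1.

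Cd68, a lysosomal membrane marker of macrophages, was at 72.8, 218, 65, 346 and 31 CPM in obese mice and at 18, 19.4 and 22.2 CPM in lean mice (log2FC 2.89 ± 0.55, adjusted p = 0.000267). Adgre1, the F4/80 gene, rose (log2FC 2.34 ± 0.49, adjusted p = 0.000604) and Csf1r, the receptor that keeps macrophages alive, rose (log2FC 1.25 ± 0.26, adjusted p = 0.000764). Itgax, the CD11c gene used to mark the macrophages of obese fat (chromosome 7, 128129547 to 128150657), was at 24.2, 73.8, 10.8, 118 and 7.67 CPM in obese mice and at 0.91, 2.01 and 2.73 CPM in lean mice (log2FC 4.55 ± 0.82, adjusted p = 0.000145; 3.88 without obese replicate 4; adjusted p = 0.147 in the run block). Every obese library lay above the lean range in these 4 genes; for Itgax the lowest of them, replicate 5, stood at 7.67 CPM.

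Of 21 genes of the lipid-associated macrophage 12 rose (11 without obese replicate 4, but 3 in the run block). Trem2, its lipid-sensing receptor (chromosome 17, 48346401 to 48354147), was at 31.8, 100.04, 14.1, 175 and 7.67 CPM in obese mice, against 2.98, 4.46 and 5.77 CPM in lean mice (log2FC 3.93 ± 0.76, adjusted p = 0.00031; 3.18 without obese replicate 4; adjusted p = 0.122 in the run block). Gpnmb, a glycoprotein gene of lipid-loaded macrophages, was at 157, 661, 97.1, 1035 and 23.8 CPM in obese mice and at 7.58, 11.2 and 22.8 CPM in lean mice (log2FC 4.94 ± 0.84, adjusted p = 7.57e-05; 4.21 without obese replicate 4). In both, replicates 2 and 4 held most of the obese signal and replicate 5 lay closest to the lean range. Atp6v0d2, a proton pump subunit gene of macrophages and osteoclasts, rose (log2FC 5.67 ± 0.96; 4.96 without obese replicate 4) and Lgals3, galectin-3, rose (log2FC 2.38 ± 0.47). Spp1, the osteopontin gene, was called in neither direction, at 15.1, 36.6, 7.61, 42.6 and 12.6 CPM in obese mice, against 0.21, 5.07 and 31.9 CPM in lean mice (log2FC 1.36 ± 0.99, adjusted p = 0.351); lean replicate 5 held the highest lean value.

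Mmp12, the macrophage elastase gene, rose (log2FC 6.38 ± 1.04, adjusted p = 4.82e-05; 5.64 without obese replicate 4). In the run block its call was lost (adjusted p = 0.225). It was at 70.01, 236, 12.9, 363 and 8.89 CPM in obese mice and at 0.315, 1.66 and 3.28 CPM in lean mice. Its promoter is shown because the gene is among the largest rises and its promoter holds a letter match for PU.1, the myeloid factor whose gene Spi1 also rose. The sequence is the 250 bases before 1 of its 2 listed starts in RefSeq (GRCm38.p6, chr9:7344147-7344396, plus strand), with the match to GAGGAAGT or its reverse complement in capitals:
Mmp12: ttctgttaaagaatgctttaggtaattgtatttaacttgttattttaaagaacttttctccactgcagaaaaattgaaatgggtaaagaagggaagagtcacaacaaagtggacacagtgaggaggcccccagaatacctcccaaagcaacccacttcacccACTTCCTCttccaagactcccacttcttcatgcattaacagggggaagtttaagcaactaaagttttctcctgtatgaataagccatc
The same letters, on either strand, stood in 2 of 19 promoters of lipid-associated macrophage genes (10.5%) and in 2.44% of 32851 promoters. The 19 promoters belong to 15 of the 21 genes tested. The genes with a match were Mmp12 itself, shown for its match, and Spp1, which was not called. In the general macrophage list 1 of 14 promoters held the letters (7.14%).

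Of 18 genes of resident macrophages 6 rose (median 0.43; 4 without obese replicate 4), among them Mrc1, the mannose receptor gene, at 77.7, 133, 106, 186 and 98.7 CPM in obese mice, against 52.5, 54.3 and 67.1 CPM in lean mice (log2FC 1.05 ± 0.21, adjusted p = 0.000417). Folr2, a folate receptor gene of resident cells, rose (log2FC 1.10 ± 0.28). Every obese library lay above the lean range for Mrc1, with replicate 4 highest and replicate 1 lowest.

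The growth factor Csf1, which feeds macrophages, was not called (117 ± 23.6 CPM in obese mice and 120.0 ± 13.6 CPM in lean mice, log2FC -0.03 ± 0.15, adjusted p = 0.908), while 9 of 12 genes on the list of myeloid growth factors, their receptors and lineage factors rose. The PU.1 gene Spi1 was at 45.9, 97, 35, 183 and 23.9 CPM in obese mice, against 12.7, 14.5 and 21.6 CPM in lean mice (log2FC 2.32 ± 0.44, adjusted p = 0.000241; 1.73 without obese replicate 4). Irf5, linked to inflammatory activation (log2FC 1.83 ± 0.39), and Irf8, a factor of the myeloid lineage (log2FC 2.07 ± 0.37), rose with it, and both were separate from the lean range.

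Sensors of microbes, lipids and antibodies rose in 19 of 23 genes (median 1.57; 12 without obese replicate 4 and 8 in the run block). Tlr13, a receptor for bacterial RNA, was at 17.4, 71.3, 13.7, 108 and 3.89 CPM in obese mice, against 1.68, 2.49 and 3.64 CPM in lean mice (log2FC 4.03 ± 0.76; 3.36 without obese replicate 4; adjusted p = 0.147 in the run block). Clec7a, the receptor for fungal glucans, rose (log2FC 2.83 ± 0.58; 2.00 without obese replicate 4; adjusted p = 0.0935 in the run block) and its signalling kinase gene Syk rose (log2FC 1.75 ± 0.39). Among 29 chemokines and receptors 15 rose, but 4 did without obese replicate 4 and 7 in the run block. Ccl9, a chemokine of myeloid cells (log2FC 2.05 ± 0.41), was called with and without it. Of 23 cytokine and inflammasome genes 10 rose, 3 without replicate 4 and 2 in the run block. The smallest p was that of Il1rn, whose product blocks the interleukin-1 receptor, at 13.9, 37.2, 6.92, 66.7 and 0.778 CPM in obese mice, against 0.341, 0.887 and 1.47 CPM in lean mice (log2FC 4.85 ± 0.87, adjusted p = 0.000134; 4.10 without obese replicate 4; adjusted p = 0.15 in the run block).

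The calls of T cell genes rested largely on 1 mouse, and those of antigen presentation did so in part. Of 20 T cell and cytotoxic genes 8 were called higher and of 13 genes of class II presentation 10. Of the class II genes 2 were called without obese replicate 4 and 6 in the run block. Without that mouse 7 were higher at an unadjusted p under 0.05 in edgeR. The list median was then 0.62 in place of 1.01. Without that mouse edgeR called 0 T cell genes (1 was higher at an unadjusted p under 0.05), and in the run block the T cell calls were lost as well. The T cell genes summed to 15.6, 27.2, 33.7, 143 and 27.3 CPM in obese mice, against 9.45, 18.1 and 25.2 CPM in lean mice. Cd8a, of the cytotoxic T cell receptor complex, was at 0.653, 1.22, 2.35, 17.2 and 1.56 CPM in obese mice and at 0.105, 0.749 and 0.858 CPM in lean mice (log2FC 2.96 ± 0.76, adjusted p = 0.00416; adjusted p = 0.258 without obese replicate 4 and 0.183 in the run block). Ciita, the switch gene of class II expression, rose (log2FC 1.56 ± 0.35, adjusted p = 0.00128) and was not called without that mouse (adjusted p = 0.0555). Interferon-induced genes differed little: 2 of 20 were called higher, a share below that of all genes, and at most 4 when single libraries were left out.

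Among the 35 lysosome genes 14 rose (median 0.30), 6 without obese replicate 4. Ctss, cathepsin S of antigen-presenting cells, was at 103, 234, 61.4, 395.3 and 31.1 CPM in obese mice, against 18.8, 20.7 and 27.6 CPM in lean mice (log2FC 2.94 ± 0.57; 2.35 without obese replicate 4), and Ctsk, a collagen-cutting cathepsin gene, rose (log2FC 2.75 ± 0.56). Ctsa, which encodes a protective protein of lysosomal enzymes, rose (log2FC 0.77 ± 0.22, adjusted p = 0.00979; adjusted p = 0.106 without obese replicate 4). Its promoter is shown because it holds the palindrome TCACGTGA, the long E-box bound by lysosomal regulators of the MiT family; the 250 bases precede 1 of its 2 listed starts in RefSeq (GRCm38.p6, chr2:164833523-164833772, plus strand), with the match in capitals:
Ctsa: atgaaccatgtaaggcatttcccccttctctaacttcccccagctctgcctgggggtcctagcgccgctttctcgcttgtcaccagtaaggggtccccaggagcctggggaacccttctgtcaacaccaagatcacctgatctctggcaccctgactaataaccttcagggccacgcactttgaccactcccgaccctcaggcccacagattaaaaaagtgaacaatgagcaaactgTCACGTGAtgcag
The palindrome stood in 4 of 35 promoters of the lysosome list (11.4%) and in 0.785% of 32851 promoters. The shorter CACGTG, which it contains, stood in 20% and 6.02%. The 35 promoters belong to 26 of the 35 genes tested.

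Circulating inflammatory proteins made in fat went both ways. Hp, the haptoglobin gene, was at 3635, 4231, 2685, 2960.3 and 1888 CPM in obese mice, against 1618, 1808 and 1975 CPM in lean mice (log2FC 0.77 ± 0.21, adjusted p = 0.0072), Lrg1, a glycoprotein gene of the acute phase, rose (log2FC 1.05 ± 0.21) and Saa3, serum amyloid A3, rose (log2FC 2.14 ± 0.42). Cp, the ceruloplasmin gene (chromosome 3, 19957054 to 20009145), was at 53.5, 66.3, 102, 45.9 and 89.2 CPM in obese mice and at 184, 217 and 242 CPM in lean mice (log2FC -1.60 ± 0.18, adjusted p = 1.73e-07), with every obese library far below the lean range. Itih4, an inhibitor heavy chain gene, fell (log2FC -2.62 ± 0.54). In the complement list 11 of 19 genes rose, among them the anaphylatoxin receptor gene C3ar1 (log2FC 2.90 ± 0.55; 2.22 without obese replicate 4), and 2 fell: adipsin, above, and Masp1, a protease gene of the lectin pathway (log2FC -2.41 ± 0.46).

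Matrix genes were higher in obese mice. Of 20 collagen genes 14 rose (median 0.88), 12 without obese replicate 4 and 13 without replicates 4 and 5. Their sum was 7018, 8791, 5516, 8097 and 5436 CPM in obese mice and 3478, 4175 and 5347 CPM in lean mice, and every obese mouse lay above the lean range. Col6a3, a chain of the collagen VI that surrounds fat cells (chromosome 1, 90765923 to 90843971), was at 279, 540.4, 226, 510.0 and 213 CPM in obese mice, against 91.7, 116 and 129.5 CPM in lean mice (log2FC 1.65 ± 0.22, adjusted p = 2.57e-06). The other chains behaved alike, Col6a1 at 694, 717, 503, 783 and 545 CPM in obese mice, against 195, 248 and 327 CPM in lean mice (log2FC 1.36 ± 0.18, adjusted p = 1.9e-06), and Col6a2 with log2FC 1.30 ± 0.21. For all 3 chains every obese library lay above the lean range, and replicates 3 and 5 were the lowest of the obese. Fibrillar collagens rose too, among them Col1a1 (log2FC 1.20 ± 0.22, adjusted p = 0.000145) and Col5a1 (log2FC 1.13 ± 0.17, adjusted p = 1.53e-05).

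Of 25 matricellular and crosslinking genes 18 rose (14 without obese replicate 4). Sparc, which binds collagen, was at 6459, 6134, 3397, 4995 and 3054 CPM in obese mice, against 2005, 2693 and 3504 CPM in lean mice (log2FC 0.84 ± 0.16, adjusted p = 0.000345). Loxl1, an elastin crosslinker gene, was at 133, 181, 167, 206 and 149 CPM in obese mice and at 73, 85.1 and 104 CPM in lean mice (log2FC 0.96 ± 0.15, adjusted p = 2.13e-05), with no overlap. Lum, lumican, rose (log2FC 1.52 ± 0.30) and Fn1, fibronectin, rose (log2FC 0.93 ± 0.20). Of 24 matrix proteases and inhibitors 15 rose (13 without obese replicate 4), among them the gelatinase gene Mmp2 (log2FC 1.43 ± 0.27), the procollagen protease gene Adamts2 (log2FC 1.11 ± 0.18) and Timp1, a metalloprotease inhibitor gene (log2FC 2.63 ± 0.53). Adamts5, an aggrecanase gene, was at 679, 695, 383, 916 and 980.1 CPM in obese mice, against 293, 322 and 381 CPM in lean mice (log2FC 1.14 ± 0.24), with replicate 3 just above the lean range. Adam8, a protease gene of myeloid cells, followed the macrophage pattern over the mice, at 31.8, 93, 12.9, 148 and 10.7 CPM in obese mice and at 2.40, 4.83 and 7.49 CPM in lean mice (log2FC 3.60 ± 0.69; 2.94 without obese replicate 4; adjusted p = 0.0803 in the run block).

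Progenitor and signalling genes moved less evenly. Of 18 genes of adipose progenitors and fibroblasts 9 rose and 1 fell, with 3 rises without obese replicate 4 and 5 without lean replicate 4 or 6. Pdgfrb, a receptor gene of mural cells and progenitors, rose (log2FC 0.90 ± 0.16, adjusted p = 0.000144) and Fstl1, a secreted glycoprotein gene, rose (log2FC 0.90 ± 0.17). Of 27 genes of the TGF-beta family 7 rose and 2 fell, and 4 rose in the run block and without any 1 of 7 libraries (obese replicates 2 to 4 and lean replicates 1, 3, 4 and 6).

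In the vessel list 1 of 20 genes rose, up to 4 when single libraries were left out, and 3 fell. Aplnr, the apelin receptor gene of sprouting endothelium, was at 103, 146, 40.8, 128 and 73.9 CPM in obese mice, against 29.4, 48.7 and 56.7 CPM in lean mice (log2FC 1.09 ± 0.24, adjusted p = 0.00115). Angpt1, which steadies vessels, was at 6.53, 14.2, 22.3, 8.73 and 7.0 CPM in obese mice and at 19, 44.5 and 52.2 CPM in lean mice (log2FC -1.73 ± 0.36, adjusted p = 0.000634), and Vegfa, the main vessel growth factor gene of fat cells, fell (log2FC -0.76 ± 0.20). The endothelial marker gene Pecam1 averaged 242 ± 40.3 CPM in obese mice and 195 ± 39.3 CPM in lean mice and was not called (adjusted p = 0.057).

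Genes of cell division rose together. Of 25 tested 23 were called (median 1.49), but 7 were without obese replicate 4, 14 without replicate 2 and 8 in the run block. Mki67, which marks cycling cells (chromosome 7, 135689784 to 135716361), was at 13.1, 42.5, 13.7, 74.9 and 8.0 CPM in obese mice and at 3.98, 6.43 and 9.44 CPM in lean mice (log2FC 2.23 ± 0.52, adjusted p = 0.00165; 1.59 and adjusted p = 0.0333 without obese replicate 4; adjusted p = 0.0658 in the run block). Top2a, the topoisomerase gene of dividing cells, was at 5.77, 14.7, 3.87, 22.3 and 3.44 CPM in obese mice, against 1.37, 2.07 and 3.92 CPM in lean mice (log2FC 2.15 ± 0.50, adjusted p = 0.00165). As for the macrophage genes, replicates 4 and 2 were highest and replicate 5 lowest, inside the lean range for both genes. Aurkb, a mitotic kinase gene, rose (log2FC 1.93 ± 0.42) and Mcm5, of the replication helicase, rose (log2FC 1.37 ± 0.32). Which cells divided is not shown by bulk counts.

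The promoters of Top2a and Mki67 are shown because members of this list moved together and share a letter pattern. In the 250 bases before their RefSeq starts (GRCm38.p6; Top2a at chr11:99024190-99024439 and Mki67 at chr7:135716380-135716629, both on the minus strand) CCAAT or its reverse complement, in capitals, stands 6 and 3 times:
Top2a: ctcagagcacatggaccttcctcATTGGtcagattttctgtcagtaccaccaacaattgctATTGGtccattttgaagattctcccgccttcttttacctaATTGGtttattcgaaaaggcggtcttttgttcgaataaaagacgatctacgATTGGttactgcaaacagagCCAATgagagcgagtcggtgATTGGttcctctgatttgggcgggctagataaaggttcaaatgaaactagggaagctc
Mki67: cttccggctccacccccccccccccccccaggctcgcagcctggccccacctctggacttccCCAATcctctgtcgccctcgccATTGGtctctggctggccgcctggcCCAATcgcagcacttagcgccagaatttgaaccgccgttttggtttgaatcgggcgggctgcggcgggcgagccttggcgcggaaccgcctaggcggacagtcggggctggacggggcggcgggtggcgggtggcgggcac
CCAAT stood in 20 of 22 promoters of the list (90.9%), for 18 of the 20 genes with a listed promoter, and in 33.8% of 32851 promoters. TTTGAA, the core of the cell cycle homology region, stood in 45.5% and in 16% of the promoters, on either strand. Other patterns were counted too. CACGTG stood in 2 of 17 promoters of de novo lipogenesis and 3 of 17 of its regulators. The sterol element TCACNCCAC stood in 0 of 17 lipogenesis promoters and 1 of 14 of the cholesterol list, beside 1.05% of all promoters. TCAAGGTCA, the estrogen-related receptor element, stood in 0 of 31 promoters of the citrate cycle list and 0 of 34 of complex I, beside 0.387%. A match of letters is a description and does not show that a factor bound there.

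Inhibitors of the cell cycle rose in part. Cdkn1a, the p21 gene, was at 181, 210.0, 58.1, 249.8 and 95.2 CPM in obese mice, against 24.3, 51.8 and 84 CPM in lean mice (log2FC 1.66 ± 0.34, adjusted p = 0.000532), and Cdkn2a, the p16 gene, had 2.18, 2.77, 1.38, 2.21 and 1.44 CPM in obese mice, against 0.341, 0.772 and 1.23 CPM in lean mice (log2FC 1.42 ± 0.41, adjusted p = 0.00922). Obese replicate 3 lay inside the lean range for Cdkn1a, and the groups were separate for Cdkn2a at these low levels. Cdkn1c, the p57 gene, fell (log2FC -0.54 ± 0.16). Of 15 genes on that list 5 rose (2 without obese replicate 4, 3 in the run block, 3 without obese replicate 2 or lean replicate 4) and 1 fell.

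Stress programmes were mixed. Of 16 hypoxia genes 4 rose (2 without obese replicate 2 or 4) and 6 fell. Hif1a itself rose (log2FC 0.57 ± 0.11, adjusted p = 0.000374) while Epas1, the gene of the HIF-2 subunit, fell (log2FC -0.43 ± 0.12), and the oxygen sensor gene Egln3, a known HIF target, was at 6.53, 5.20, 11.8, 4.73 and 10.0 CPM in obese mice, against 15.8, 19.2 and 22.1 CPM in lean mice (log2FC -1.29 ± 0.24, adjusted p = 0.000212). Of 26 antioxidant genes 3 rose and 10 fell (4 without obese replicate 4, 6 without replicate 2). Gsta4, which detoxifies lipid aldehydes, was at 7.73, 2.66, 6.78, 0.736 and 6.56 CPM in obese mice and at 15.7, 17.2 and 19.6 CPM in lean mice (log2FC -1.82 ± 0.33, adjusted p = 0.000151). Its level was lowest in replicates 4 and 2. Sod3, the extracellular dismutase gene, rose (log2FC 0.77 ± 0.13) and Hmox1, haem oxygenase, rose (log2FC 1.34 ± 0.28). Of 21 genes of stress in the endoplasmic reticulum 4 rose, close to the share of all genes (2 in the run block), led by Sdf2l1 (log2FC 1.24 ± 0.26) and Atf3 (log2FC 3.19 ± 0.66; 2.56 without obese replicate 4; adjusted p = 0.075 in the run block).

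Hsd11b1 had the smallest adjusted p of the genes named here (chromosome 1, 193221634 to 193264075). It was at 34.2, 41.8, 51.4, 31.3 and 67.6 CPM in obese mice and at 271, 402.8 and 509.5 CPM in lean mice (log2FC -3.14 ± 0.31, adjusted p = 9.18e-09), 8.84-fold lower in the mean of the obese mice. Tsc22d3, a glucocorticoid-induced gene, rose (log2FC 0.86 ± 0.17, adjusted p = 0.000439). The 14 genes of the glucocorticoid list otherwise went both ways, with 2 higher (1 without any single one of lean replicates 5 and 6 and obese replicates 1, 2 and 3) and 3 lower. Of 18 clock genes 8 fell. Nr1d1, a repressor of the clock, was at 264, 200.4, 289, 182 and 315 CPM in obese mice, against 369, 459.5 and 642 CPM in lean mice (log2FC -0.97 ± 0.17, adjusted p = 8.63e-05), and Bhlhe40 fell (log2FC -2.02 ± 0.41). No source used here gives the hour at which each mouse was killed, and its part in these genes was not tested.

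Markers of neighbouring tissue were looked for in each library. The 20 genes of the epididymal duct, which lies against this pad, summed to 12, 15.7, 31.3, 10.9 and 1264 CPM in obese mice, against 6.45, 15.2 and 256 CPM in lean mice; the signal stood in obese replicate 5 and, lower, in 1 lean library. Akr1b7, an abundant duct gene, was at 0, 0, 4.84, 0.105 and 705 CPM in obese mice and at most 0.123 CPM in lean mice, and its call (adjusted p = 0.0144) was lost without obese replicate 5 (adjusted p = 0.643). With the mean log2 CPM of the 8 duct genes tested as a term in the fit, 3309 genes were called in place of 3346. Each of the 145 called genes among the 154 named with values kept its call. Akr1b7 was among them, so this term did not take out all of the duct signal. Skeletal muscle genes summed to 25.9 to 67.9 CPM in obese libraries and 32.6 to 97.7 CPM in lean ones, testis germ cell genes to 0.544 to 3.47 CPM in obese and 0.339 to 9.75 CPM in lean ones, and mesothelium genes to 210.2 to 670.3 CPM in obese and 379.8 to 595 CPM in lean ones.

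The inguinal pad of the same mice tested which of these differences depended on the depot. There 4195 of 13899 genes were called, 30.2%, and the difference between the depots' responses, from a fit of all 94 libraries with a term for each mouse, was called for 195 of 14749 genes, 1.32% (99 with a higher value in eWAT, 0.671%, and 96 lower, 0.651%). The count was 36 without the mouse block. A difference from that fit need not equal the difference of the values printed for each depot. Elovl6 and Slc2a5 fell in both pads and further in the inguinal one: for Elovl6 log2FC was -4.16 ± 0.60 in eWAT and -5.62 ± 0.65 in iWAT, with a depot difference, eWAT minus iWAT, of 1.62 ± 0.31 (adjusted p = 0.00282), and for Slc2a5 the depot difference was 4.16 ± 0.73 (adjusted p = 0.0013). Pdk1 (0.77 ± 0.15, adjusted p = 0.00282) and Ddo, which breaks down D-aspartate (1.30 ± 0.27, adjusted p = 0.00567), were like them. Of the macrophage list 11 of 18 genes rose in iWAT, beside 14.7% of all genes tested there. The depot difference was not called for Itgax, at 2.19 ± 0.73 (adjusted p = 0.143) nor for Gpnmb, at 2.51 ± 0.96 (adjusted p = 0.236).

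Otop1 moved in opposite directions in the pads. This proton channel gene of thermogenic fat cells was at 17.9 ± 16.6 CPM in obese and 3.47 ± 2.37 CPM in lean eWAT (log2FC 2.38 ± 0.56), and at 46.1 ± 26.4 CPM in obese and 114 ± 54 CPM in lean iWAT (-1.30 ± 0.43; depot difference 3.43 ± 0.63, adjusted p = 0.00192). Nnt fell in eWAT and was not called in iWAT (0.00 ± 0.12; depot difference -0.64 ± 0.13, adjusted p = 0.00684). Cyp2f2 fell further in eWAT (depot difference -1.95 ± 0.42, adjusted p = 0.00867). These 7 depot differences were called in each fit that left out 1 of the 11 mice. In the edgeR fit without the mouse block, which ignores the pairing, that of Otop1 was called (adjusted p = 0.00258). The others were not (adjusted p = 0.0917 for Nnt to 0.652 for Elovl6). In the 22 libraries alone edgeR called all but that of Otop1 (adjusted p = 0.0583). Lrpap1, a chaperone gene of lipoprotein receptors (-0.77 ± 0.17, adjusted p = 0.0103), was called in 10 of the 11. Those of Cidea (1.80 ± 0.46), Pdk4 (1.99 ± 0.47), Cfd (-0.87 ± 0.23), Enpep (-1.10 ± 0.25), Egln3 (1.12 ± 0.28), Zbtb7c (-0.93 ± 0.22), Chchd10 (1.22 ± 0.31), Sez6l (-2.98 ± 0.77), Ubd (1.43 ± 0.39) and Mest (-1.69 ± 0.46) were called in 2 to 8 of the 11, so that their calls depend on single mice.

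**Figure D4:**
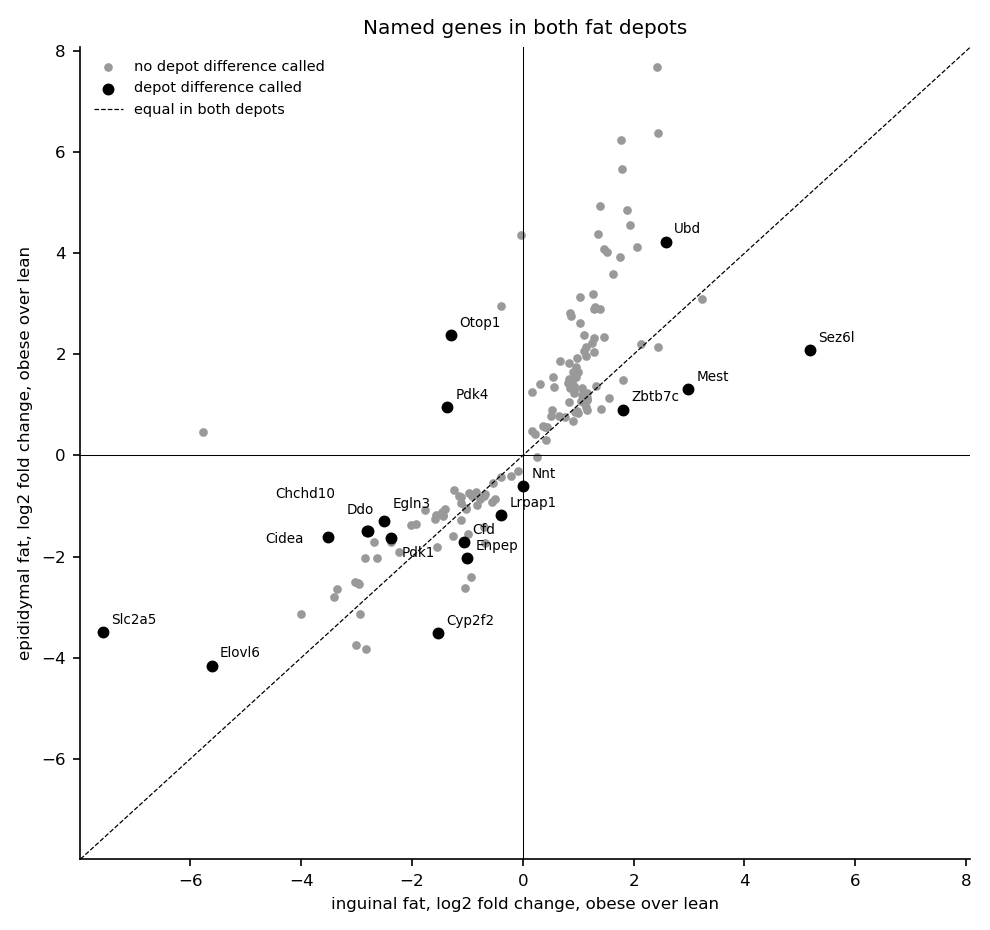
Log2 fold change of obese against lean mice in iWAT (horizontal) and eWAT (vertical) for 152 named genes, with the 18 genes whose depot difference was called marked and named; the diagonal marks equal values. Slc2a5 and Elovl6 lie above the diagonal with larger falls in iWAT, Cyp2f2 lies below it, and Otop1 stands in the corner of opposite signs.

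The differences of obese eWAT were set against those of other mice returned to the low-fat diet for 2 weeks, which had lean controls of their own. The obesity difference minus the 2-week difference was called for 834 of 14323 genes, 5.82% (535 higher, 3.74%, and 299 lower, 2.09%). Replicate 2 of the 2-week regression group held 1.32 M counts, where the others of that group held 6.06 M or more. Without that library 898 genes were called. For Lep log2FC was 2.20 ± 0.29 in obesity and -0.89 ± 0.27 after 2 weeks, a difference of 3.10 ± 0.40 (adjusted p = 7.3e-06). Genes with a higher value in obesity than at 2 weeks included Zfp423 (difference 1.27 ± 0.18, adjusted p = 2.15e-05), Adamts5 (2.27 ± 0.34, adjusted p = 4.25e-05), Col5a1 (1.15 ± 0.24, adjusted p = 0.00264), Sparc (1.15 ± 0.23, adjusted p = 0.00148), Hmgcs1 (1.98 ± 0.36, adjusted p = 0.000671) and Lrg1 (1.86 ± 0.29, adjusted p = 7.46e-05). Of the collagens 6 of 20 had such a difference. For Hsd11b1 log2FC was -3.14 ± 0.31 in obesity and -1.71 ± 0.27 at 2 weeks (difference -1.44 ± 0.39, adjusted p = 0.02), and Cp also had a lower value in obesity (difference -1.20 ± 0.24, adjusted p = 0.00179). Dgat2 and Scd2, not called in obesity, fell at 2 weeks (log2FC -1.96 ± 0.31 and -3.25 ± 0.41). Macrophage genes were still high at 2 weeks, with a log2FC of 5.02 ± 0.81 for Itgax and 4.59 ± 0.75 for Trem2; the differences between the times were not called, at -0.47 ± 1.12 (adjusted p = 0.891) and -0.66 ± 1.02 (adjusted p = 0.807), whose standard errors leave room for changes in either direction.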

How the data were processed

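Poly(A) RNA of 47 epididymal and 47 inguinal fat pads was sequenced as read pairs on an Illumina NovaSeq, per the labels' protocols. STAR 2.4.1c, DESeq2 1.38.3, R 4.2.2 and the build mm10 are named in the submitters' processing notes. Program, annotation and strand setting of the counting are not given in the sources, so overlapping and antisense genes cannot be told apart. The authors deposited whole-number read counts per gene symbol, used as they stand, and a table of their own comparisons with a signal (mean normalised count), log2 fold changes, a score (Wald statistic) and p-values per gene. That deposited table was used for 1 check: of the genes called here it calls 1999 of 2013 higher ones and 1331 of 1333 lower ones the same way.

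All epididymal libraries were fitted together in edgeR 4.0.16 (R 4.3.3; TMM, filterByExpr, quasi-likelihood F-test, Benjamini-Hochberg adjustment), so the groups share 1 estimate of the spread, and obese was set against lean by contrast. SEs are the log2 fold change over the root of F. The depot difference came from 1 edgeR fit over all 94 libraries with a term for each mouse, since each mouse gave both depots. Tested on simulated counts of 14228 genes, the fit recovered 80 of 100 genes changed by a log2 of 1. It recovered 94 of 100 changed by a log2 of 2, and 4 of its 178 calls were unchanged genes. The changed genes were taken from those at 1 CPM or more and were far fewer than the calls in the data. Each gene was simulated on its own, so spread that genes share within a mouse was not part of the test. Alternatives were DESeq2 1.42.0, its size factors, no count filter, the 11 libraries alone, terms for duct signal and mouse number range, a block for the replicate number, a random block for runs of adjacent mouse numbers (limma 3.58.1), and each library left out.

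The members, the 63 gene lists and the genes named were chosen with earlier results of these data known. Named genes are the 12 largest calls in each direction without overlap and with a mean of at least 5 CPM in a group, up to 4 called members with the smallest p and the most abundant member of each list, members moving against their list, the 6 largest depot differences each way and a short set of reference genes. Rbp4, Scd2, Slc25a1, Adrb3, Csf1r, Lgals3, Spp1, Csf1, Ctsa, Adamts5, Timp1 and Pecam1 fall outside that rule and were chosen after their values were seen. A few genes that the rule names are not reported here. Gene positions are those of GENCODE M21 (mm10), found for 19712 of 20411 symbols, and promoter letters those of RefSeq (GRCm38.p6). No pair of libraries agreed within sampling noise.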

Additional observations from a re-analysis of the deposited data

Results flagged for a closer look

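In 308 groups of 5 obese or 6 lean libraries, 30 held a library far from the others by Dixon's test, where chance gives about 1 in 20. Obese replicate 5 was far above the other obese mice for lipogenic genes, with Fasn at 9237 CPM, Acly at 685 CPM, Acaca at 745 CPM and Elovl6 at 155 CPM, and for Slc2a5 (2.22 CPM), Masp1 (1.89 CPM), Enpep (162 CPM) and the duct gene Akr1b7 (705 CPM). Obese replicate 4 was far above the others for Cd8a (17.2 CPM) and Ciita (99.8 CPM). Obese replicate 2 was far below the others for Itih4 (0.332 CPM). Lean replicate 3 was high for Dgat2 (4045 CPM), Otop1 (8.21 CPM), Folr2 (50.5 CPM), Spi1 (21.6 CPM), Ctss (27.6 CPM) and Top2a (3.92 CPM), and lean replicate 2 for Hilpda (15.2 CPM), Atf3 (12.3 CPM) and Myh15 (0.105 CPM). Lean replicate 5 was low for Cidea (8.43 CPM), Cs (533 CPM), Atp5b (691 CPM), Bcat2 (95.0 CPM) and Hsd17b10 (38.5 CPM), and high for Spp1 (31.9 CPM), Itih4 (8.43 CPM), Mmp2 (54.2 CPM), Alb (94.8 CPM) and Trdn (0.702 CPM).

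The response to obesity differed between the depots, eWAT minus iWAT in log2, for 18 of the named genes. It was higher in eWAT for Elovl6 (1.62), Cidea (1.80), Slc2a5 (4.16), Pdk1 (0.77), Pdk4 (1.99), Otop1 (3.43), Ubd (1.43), Egln3 (1.122), Ddo (1.30) and Chchd10 (1.22). It was lower in eWAT for Mest (-1.69), Cfd (-0.87), Nnt (-0.64), Cyp2f2 (-1.95), Sez6l (-2.98), Enpep (-1.10), Zbtb7c (-0.93) and Lrpap1 (-0.77). With single mice left out those of Elovl6, Slc2a5, Pdk1, Otop1, Nnt, Cyp2f2 and Ddo were called in each of 11 fits. That of Lrpap1 was called in 10, that of Enpep in 8, those of Pdk4, Egln3 and Zbtb7c in 6 and that of Cfd in 5. Those of Cidea, Sez6l and Chchd10 were called in 4, that of Ubd in 3 and that of Mest in 2.

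The response in obesity minus that after 2 weeks of low-fat diet was called for 22 of the named genes. Among fat cell and sterol genes it was positive for Lep (3.10), Scd2 (2.32), Dgat2 (2.38), Zfp423 (1.27), Adra1a (1.15), Vldlr (0.67) and Hmgcs1 (1.98). Among secreted and matrix genes it was positive for Hp (1.29), Lrg1 (1.86), Col6a1 (0.83), Col6a2 (1.06), Col5a1 (1.15), Sparc (1.15), Adamts5 (2.27) and Sod3 (0.79). Aplnr (1.65), Hif1a (0.83), Sez6l (1.99) and Zbtb7c (1.15) were positive as well, and Ndufa6 of complex I (-0.81), Cp (-1.20) and Hsd11b1 (-1.44) were negative. The difference of Col6a1 was called in 10 of 23 fits that left out 1 library, and not with a replicate block (adjusted p = 0.0571) or without a count filter (adjusted p = 0.0501); that of Col6a2 was called in 21 of 23.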

How the results depend on the processing

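The count of 3346 genes called in obese against lean eWAT was within 1.5 times under DESeq2, its size factors, no count filter, the 11 libraries alone and terms for the duct signal or the mouse number range. It was 607 in replicates 1 to 3 alone, 1513 in the higher replicates alone and 1568 without obese replicates 4 and 5; fewer samples enter these fits. Leaving out single libraries gave 1722 (without obese replicate 4) to 3560. With a replicate block 3263 genes were called, 1864 of the higher and 1241 of the lower ones being shared. In their deviations from the group means, same-numbered libraries correlated at -0.112, -0.257, 0.024, 0.480 and 0.404, and 1 of 5 correlated best with its own number. These 5 values are too few to say whether the numbers pair the mice. A random block for runs of adjacent mouse numbers, fitted in limma in place of edgeR and chosen after seeing the data, left 2622 calls. In it 18 of 145 called named genes lost theirs, and called lipid-associated macrophage genes numbered 3 in place of 12. The depot count of 195 was 36 without the replicate block by mouse, 56 in the 22 libraries alone and 90 to 216 with single mice left out. The difference in library totals was -2.07 to -1.39 M with single libraries left out and, without obese replicate 3, -1.42 M (exact permutation p = 0.0762; 0.0143 to 0.0476 otherwise). Of 145 called named genes 51 were called in each alternative; Pdk4 changed sign in the higher replicates alone (-0.0113). The cause of these changes was not tested. Genes under about 1 CPM rest on few counts at 7.03 to 12.0 M per library.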

Other observations

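Further lists were counted over the same epididymal libraries, beside 14.1% higher and 9.31% lower over all genes. Of 11 dendritic cell genes 7 rose, among them the chemokine receptor gene Xcr1 and the growth factor receptor gene Flt3, but 3 did without obese replicate 4 and 4 in the run block. Of 10 monocyte and neutrophil genes 3 rose, Ccr2, Csf3r and Fn1, and 1 did without that mouse. B cell and plasma cell genes summed to 61, 40.3, 149.6, 302 and 40.4 CPM in obese mice, against 16.1, 29.6 and 66.9 CPM in lean mice. Jchain and Pou2af1 were the 2 genes called of 10, and both calls were lost without obese replicate 4 or without any single one of lean replicates 1, 2, 5 and 6. Of 12 genes of thermogenic fat cells 2 rose, Otop1 and Prdm16, and 4 fell, Cidea, Cox8b, Ebf2 and Ppargc1a. Of 16 genes of mitochondrial biogenesis and dynamics 4 fell (2 without obese replicate 4) and 1 rose, Perm1, a call lost without obese replicate 2 or 4. Of 19 peroxisome genes 5 fell, 1 without obese replicate 2 or 4. Of 21 genes of Wnt ligands and inhibitors 3 rose, Sfrp4, Sfrp5 and Wnt11 (2 without obese replicate 4), a share of 14.3%, close to that of all genes. Nerve and Schwann cell genes summed to 260.4 to 369.5 CPM in obese libraries and to 309 to 458.4 CPM in lean ones. Members named here with no value were named after their values were seen.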
